A study of Mus musculus with 4 samples.

Results

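The receptors for interleukin-12 (IL-12), IL-18 and IL-33, together with the neighbouring receptors of the IL-1 family, were examined as 8 genes in an ATAC-seq study of mouse natural killer (NK) cells. The genes were Il12rb1, Il12rb2, Il18r1, Il18rap, Il1rl1, Il1rl2, Il1r1 and Il1r2. Accessible regions were counted for a gene when no other protein-coding gene had a span closer to the region, and this gave 65 of the 91266 regions listed by the authors for the series. The 6 genes Il1r2, Il1r1, Il1rl2, Il1rl1, Il18r1 and Il18rap lie next to each other on chromosome 1 and were treated as 1 block, with 46 of the 65 regions. The cells were cultured splenic NK cells of wild-type C57BL/6 mice, kept for 72 h either in a high dose of IL-15 (2 samples) or in a low dose (2 samples). IL-15 is the cytokine on which NK cells depend. All 4 samples thus shared strain, genotype, tissue of origin and culture time, and differed by the labelled dose, whose concentration the labels do not give. Culture, outside the animal, is the setting in which any statement on these cells holds.

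NK cells respond to IL-12 and IL-18, given together, with strong release of interferon gamma. IL-12 signals through a pair of chains, IL-12Rβ1 (Il12rb1), which is shared with the IL-23 receptor and associates with TYK2, and IL-12Rβ2 (Il12rb2), which associates with JAK2 and leads to activation of STAT4. IL-18 binds IL-18Rα (Il18r1), and the accessory chain IL-18Rβ (Il18rap) completes the signalling receptor, which acts through MyD88 and IRAK kinases. The remaining genes encode relatives of the IL-18 receptor chains: ST2, the IL-33 receptor (Il1rl1), the IL-36 receptor (Il1rl2), the signalling IL-1 receptor (Il1r1) and the IL-1 decoy receptor (Il1r2), which binds IL-1 without signalling.

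The data were positions of regions, the authors' deposited list of 3845 regions that were up between the doses and their list of 1275 that were down. The deposited tables used here carry no value per sample. Sequencing depth is therefore unknown, no value below has a replicate error, and the authors' calls could not be tested again. The sources used here do not say which dose the other was compared against, so neither list is assigned to a dose. In bulk libraries, more cells with an open region and a region more open in each cell cannot be told apart. The labelled cell type was checked on promoter windows, each of which runs from 250 bases before to 50 bases after an annotated start site. Windows of 8 of 8 NK cell markers overlapped a region, against 0 of 3 T cell markers, 0 of 2 B cell markers, 1 of 2 myeloid markers (Itgax) and 2 of 5 markers of group 2 innate lymphoid cells and mast cells (Gata3 and Kit).

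Promoter sequences are shown first, because the receptors differed in whether an accessible region lay over their start sites. The sequences are those of RefSeq, build GRCm38.p6, which carries the same coordinates as the build mm10 of the regions. Windows were found for 7 of the 8 genes, and Il12rb1 was not among them. Each sequence runs 5′ to 3′ along the gene's strand and ends at or before the base preceding the start site. The Il12rb2 window and those of the first 2 Il18r1 start sites cross an end of an annotated gene span, and the part outside it is shown. The Il1rl1 window lies wholly inside the span of Il1rl1 and was not shortened. The window of the last Il18r1 start site lies inside Il18r1 and is not shown, and its motif matches are given below. Capitals mark a match to the STAT motif TTCNNNGAA.
Il12rb2, chr6:67376294-67376438, minus strand: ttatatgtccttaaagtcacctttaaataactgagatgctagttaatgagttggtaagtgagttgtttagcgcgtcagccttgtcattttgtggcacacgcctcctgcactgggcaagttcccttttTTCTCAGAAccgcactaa
Il18r1, first start site, chr1:40465419-40465551, plus strand: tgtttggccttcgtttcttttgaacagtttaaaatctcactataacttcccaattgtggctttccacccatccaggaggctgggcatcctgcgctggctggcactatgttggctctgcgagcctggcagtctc
Il18rap, chr1:40515112-40515361, plus strand: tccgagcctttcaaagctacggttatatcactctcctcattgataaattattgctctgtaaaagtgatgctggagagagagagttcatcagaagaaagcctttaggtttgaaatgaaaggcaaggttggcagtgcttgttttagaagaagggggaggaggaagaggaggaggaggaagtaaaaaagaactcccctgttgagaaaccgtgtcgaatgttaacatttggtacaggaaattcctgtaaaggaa
Il1rl1, first start site, chr1:40429320-40429569, plus strand: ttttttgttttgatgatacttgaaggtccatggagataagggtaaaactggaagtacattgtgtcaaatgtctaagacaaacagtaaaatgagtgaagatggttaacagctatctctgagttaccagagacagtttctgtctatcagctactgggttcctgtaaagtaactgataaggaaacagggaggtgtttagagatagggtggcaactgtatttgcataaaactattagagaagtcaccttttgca
The stretch printed for Il12rb2 (145 bases) and that for Il18rap (250 bases) lay wholly inside an accessible region. The stretch printed for Il18r1 is the whole interval of 133 bases between the end of Il1rl1 and the start of Il18r1, and 95 of its bases lay inside a region. The stretch printed for Il1rl1 (250 bases), which precedes the first of its 2 start sites with a window, had 0 bases in a region.

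Across the 7 genes there were 11 promoter windows, and 7 of them, from 5 genes, overlapped a region. For comparison, 54.0% of 21263 promoter windows of protein-coding genes did so. The Il12rb2 window was covered in full by a region of 761 bp at chr6:67375818-67376578. The Il18rap window was covered in full by a region of 949 bp at chr1:40514851-40515799. These were the promoters of a signalling chain of the IL-12 receptor and of the accessory chain of the IL-18 receptor. Il18r1 has 3 annotated start sites, and 1 region of 523 bp at chr1:40465457-40465979 overlapped all 3 windows, by 48.3%, 71.3% and 74.7% of their bases in order of position. The Il1rl2 window was overlapped by 67.7% and the Il1r2 window by 97.7%. Il1r1 and Il1rl1 stood apart from these 5 genes, since neither of the 2 windows of each overlapped a region. The annotated spans of Il1r2, Il1r1 and Il1rl1 begin at smaller coordinates than their first windows, and no region overlapped those span starts. Start sites named in this report are those with a window. From the first start site of Il1rl1 the nearest region lay 762 bp away and was 193 bp wide, and from its second start site the nearest lay 2046 bp away. From the start sites of Il1r1 the nearest regions lay 13.7 kb and 4.47 kb away. None of the 7 overlapped windows had its region in the up or the down list. Over all protein-coding genes this was also rare: of 11482 windows with a region, the region was up for 73 and down for 24.

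**Figure D1:**
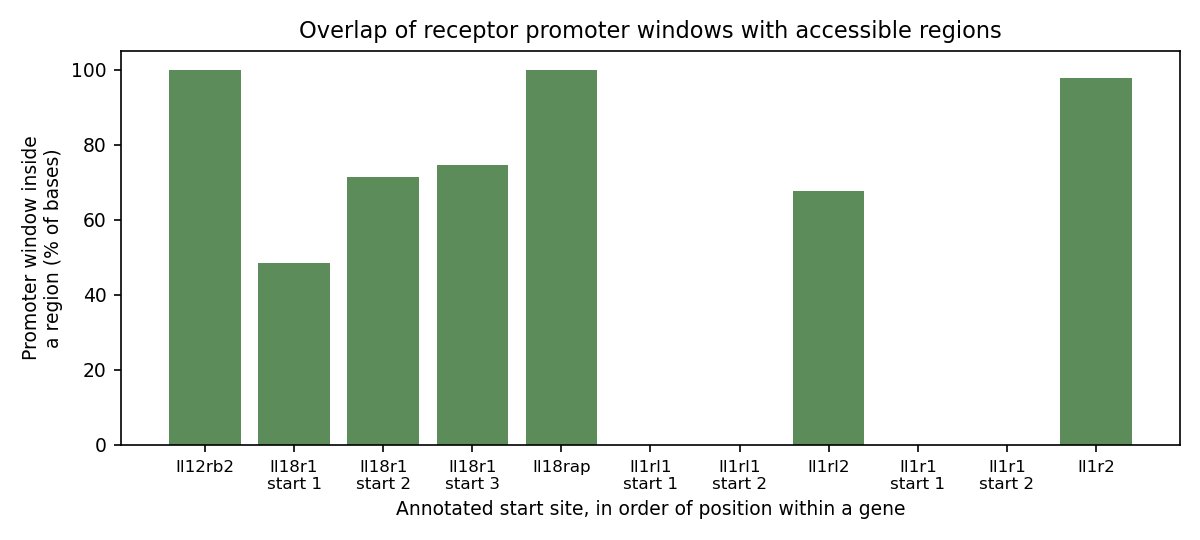
Share of each promoter window (300 bases around 1 annotated start site, in % of bases) that lay inside an accessible region, for the 7 receptor genes with windows. The 4 windows of Il1rl1 and Il1r1 are at 0, and those of Il12rb2 and Il18rap are at 100.

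Of 6 motifs searched on both strands of the 300-base windows, 3 had a match in a receptor window. The STAT motif TTCNNNGAA was found in 3 of 11 windows, against 7.69% of all protein-coding windows. The Il12rb2 window held TTCTCAGAA, beginning 123 bases before the start site. The window of the last Il18r1 start site held both TTCTGGGAA and TTCCCAGAA, beginning 219 and 152 bases before it. The Il1r2 window held TTCAAGGAA, beginning 111 bases before its start site. The RUNX motif TGTGGT was found in 4 of 11 windows (Il18r1, Il18rap, Il1rl1 and Il1rl2), against 15.0% of all. At Il18r1 (its second start site) and Il18rap it began 21 and 31 bases past the start site, and at Il1rl1 (its second start site) and Il1rl2 it began 6 and 247 bases before it. In the 250 bases before the start site it was thus found in 2 of 11 windows, against 12.4% of all. The NF-kB motif, GGGA and CC separated by any 4 bases, was found in 1 window, that of Il12rb2, as GGGACTTCCC across the start site, against 23.0% of all. No match was found for the AP-1 motif TGANTCA (in 6.99% of all windows), the T-box motif TCACACC (3.68%) or the ETS motif CAGGAAG (12.5%). None of the listed matches overlapped a match to another of the 6 motifs. The first 2 windows of Il18r1 overlap each other and are not independent, and a match of letters shows no binding.

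Whether the IL-15 dose changed accessibility at these receptors was read from the authors' lists. Of the 65 regions, 0 were in the up list and 1 was in the down list, and 64 (98.5%) were in neither. Over all 91266 regions, 4.21% were up, 1.40% were down and 5.61% were in either list. At those shares 65 regions would hold 2.74 up and 0.908 down regions. The listed share of the receptor regions was 1.54%, with a 95% Wilson interval of 0.272 to 8.21% that contains the share of all regions. A count of 0 among 65 allows a share of up to 4.62% for the up list, which is above the share of all regions. For the up list, a share below that of all regions was therefore not detectable with 65 regions. The intervals cover counting error only.

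The single listed region lay inside Il18r1, the gene of the IL-18-binding chain. It was a down region of 459 bp at chr1:40488743-40489201, 23.2 kb downstream of the first start site, 11.7 kb before the far end of the gene and 26.2 kb before Il18rap. Exons and introns were not annotated here. Its width ranked above 34 of the 65 receptor regions. Among all down regions 36.3% were narrower, the median of the down list being 537 bp. The next region before it, of 506 bp at chr1:40479438-40479943, was 8.80 kb away, and the next after it, of 196 bp at chr1:40497695-40497890, was 8.49 kb away. Neither was listed. Inside protein-coding genes and over 1000 bp from any gene end, 1.64% of 42179 regions were down. Of the 281 genes with 11 regions, Il18r1 included, 21 had 1 down and 0 up regions. Brf1, Camk2b and Cdkl3 are the first of these in alphabetical order after Il18r1 is set aside, with 11 regions each and a difference of 0 from Il18r1 in number.

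The IL-18 receptor genes held the most regions per length of gene in the block. Lower and upper below mean the smaller and the larger coordinate. Il18r1 (chr1:40465552-40500854) had 11 regions, 9 of them inside the gene, or 25.5 per 100 kb of gene. Il18rap (chr1:40515362-40551707) had 10 regions, 9 of them inside, or 24.8 per 100 kb. Fewer regions per length were found in 90.4% and 89.9% of protein-coding genes, respectively, and the median of genes with at least 1 region inside was 9.84 per 100 kb. From the lower end of Il18r1 to the upper end of Il18rap, regions covered 13.1% of 86.2 kb. The corresponding value was 2.96% of 381 kb from the lower end of Il1r2 to the upper end of Il1rl1.

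Within Il18r1 the regions crowded at the start. The region over the start sites was followed after 174 bp by the narrowest region of the gene, 187 bp at chr1:40466154-40466340. The widest region assigned to Il18r1 measured 1430 bp at chr1:40501031-40502460, and lay 177 bp above the gene's upper end, in the 14.5 kb between Il18r1 and Il18rap. Of all regions, 97.8% were narrower. At Il18rap, 3 regions lay close together at the start: 547 bp at chr1:40514071-40514617, the promoter region of 949 bp, and 717 bp at chr1:40516071-40516787. The promoter region was the widest of that gene, and the narrowest was 263 bp at chr1:40550331-40550593. None of the 10 Il18rap regions was listed, and of the 327 genes with 10 regions, Il18rap included, 56.6% had none listed.

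**Figure D2:**
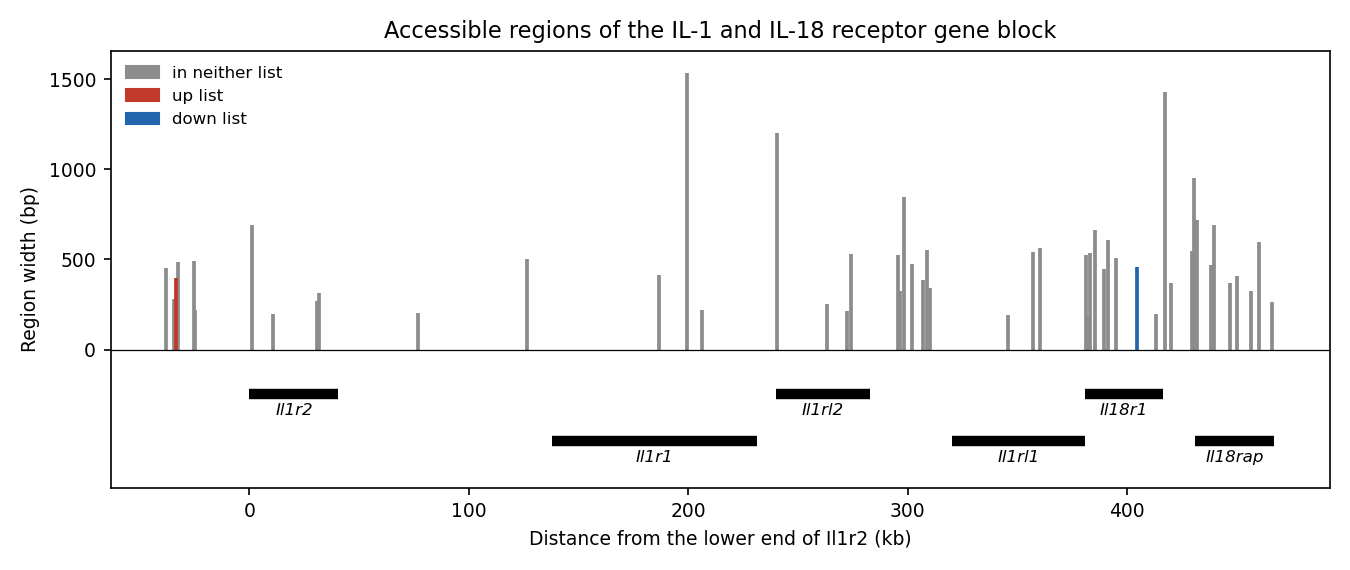
Regions of the chromosome 1 block, each drawn as a line at its midpoint with the region's width (bp) as height, against distance from the lower end of Il1r2 (kb). Black bars are gene spans. The blue line inside Il18r1 is the 1 down region, and the red line left of Il1r2 is an up region of 397 bp whose nearest gene is Map4k4, which is outside the range drawn.

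The remaining genes of the block held fewer regions per length than Il18r1 and Il18rap. Il1r2 and Il1rl2 were near the median of 9.84 per 100 kb, and Il1rl1 and Il1r1 were below it. Il1rl1, the ST2 gene (chr1:40404864-40465418), had 7 regions, of which 3 were inside the gene, or 4.95 per 100 kb. The other 4 lay 9.98 to 18.2 kb below it, so that a limit of 10 kb left 4 of the 7, the 3 inside included. The widest was 563 bp at chr1:40444643-40445205 and the narrowest was the one of 193 bp at chr1:40430332-40430524 near the first start site. Il1rl2, the IL-36 receptor gene (chr1:40324589-40367555), had 7 regions, 4 of them inside, or 9.31 per 100 kb, and those 4 alone lay within 10 kb. Its promoter region was its widest, 1200 bp at chr1:40324436-40325635, and its narrowest was 211 bp at chr1:40357099-40357309. Il1r1 (chr1:40222480-40316201) had 4 regions, 3 of them inside, or 3.20 per 100 kb, the lowest density of the 8 genes. One of these was the widest of all 65 regions, 1535 bp at chr1:40283264-40284798, and lay 31.4 kb from the nearer gene end. The narrowest at Il1r1 was 218 bp at chr1:40290586-40290803.

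Il1r2, the decoy receptor gene (chr1:40084692-40125230), had 7 regions, 4 of them inside, or 9.87 per 100 kb. Its count depended on the rule of assignment: 3 regions were left when genes of any biotype could be nearest, the other 4 going to Gm16894 and Gm35741, and 4 were left within 10 kb of the gene. The widest was the promoter region of 690 bp at chr1:40085446-40086135, and the narrowest was 198 bp at chr1:40095267-40095464. Its median width, 269 bp, was the lowest of the 8 genes. All 25 regions of Il1r2, Il1r1, Il1rl2 and Il1rl1 were in neither list. A count of 0 among 25 allows a listed share of up to 12%, so a share equal to that of all regions cannot be told from 0 here.

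Regions of the block were unevenly spaced. Between Il1rl2 and Il1rl1, 7 regions of 323 to 848 bp lay within 14.7 kb outside any protein-coding gene, at chr1:40380144-40394888. By distance, 3 of them were assigned to Il1rl2 and 4 to Il1rl1. The largest interval without a region, 59.7 kb, began above the region at chr1:40210899-40211402. It took in the lower part of Il1r1 with both start sites that have a window. The median interval between neighbouring regions was 3.14 kb for Il18r1 and Il18rap together, 9.09 kb for the other 4 genes of the block and 6.91 kb over the genome.

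Of the IL-12 receptor genes, Il12rb2 had the most regions of the 8 genes, and none was listed. Il12rb2 (chr6:67285986-67376293) had 15 regions, 14 of them inside the gene, or 15.5 per 100 kb. The widest was 791 bp at chr6:67347813-67348603, 27.7 kb from the nearer gene end, and the narrowest was 156 bp at chr6:67325347-67325502. The promoter region of 761 bp had a neighbour of 212 bp at chr6:67375332-67375543, 274 bp away, and another of 386 bp at chr6:67377981-67378366, outside the gene. Of 153 genes with 15 regions, Il12rb2 included, 45.1% had none listed.

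Il12rb1 (chr8:70808360-70823542) had 4 regions, 3 of them inside the gene, or 19.8 per 100 kb of this short gene. They measured 470 bp at chr8:70806524-70806993, 318 bp at chr8:70808263-70808580 over the lower end of the gene, 350 bp at chr8:70811278-70811627 and 297 bp at chr8:70821590-70821886. None was listed, as in 83.1% of the 1576 genes with 4 regions. No replicate spread exists for the densities, so neighbours in their order (Il18r1, Il18rap, Il12rb1, Il12rb2, Il1r2, Il1rl2, Il1rl1, Il1r1) cannot be said to differ.

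**Figure D3:**
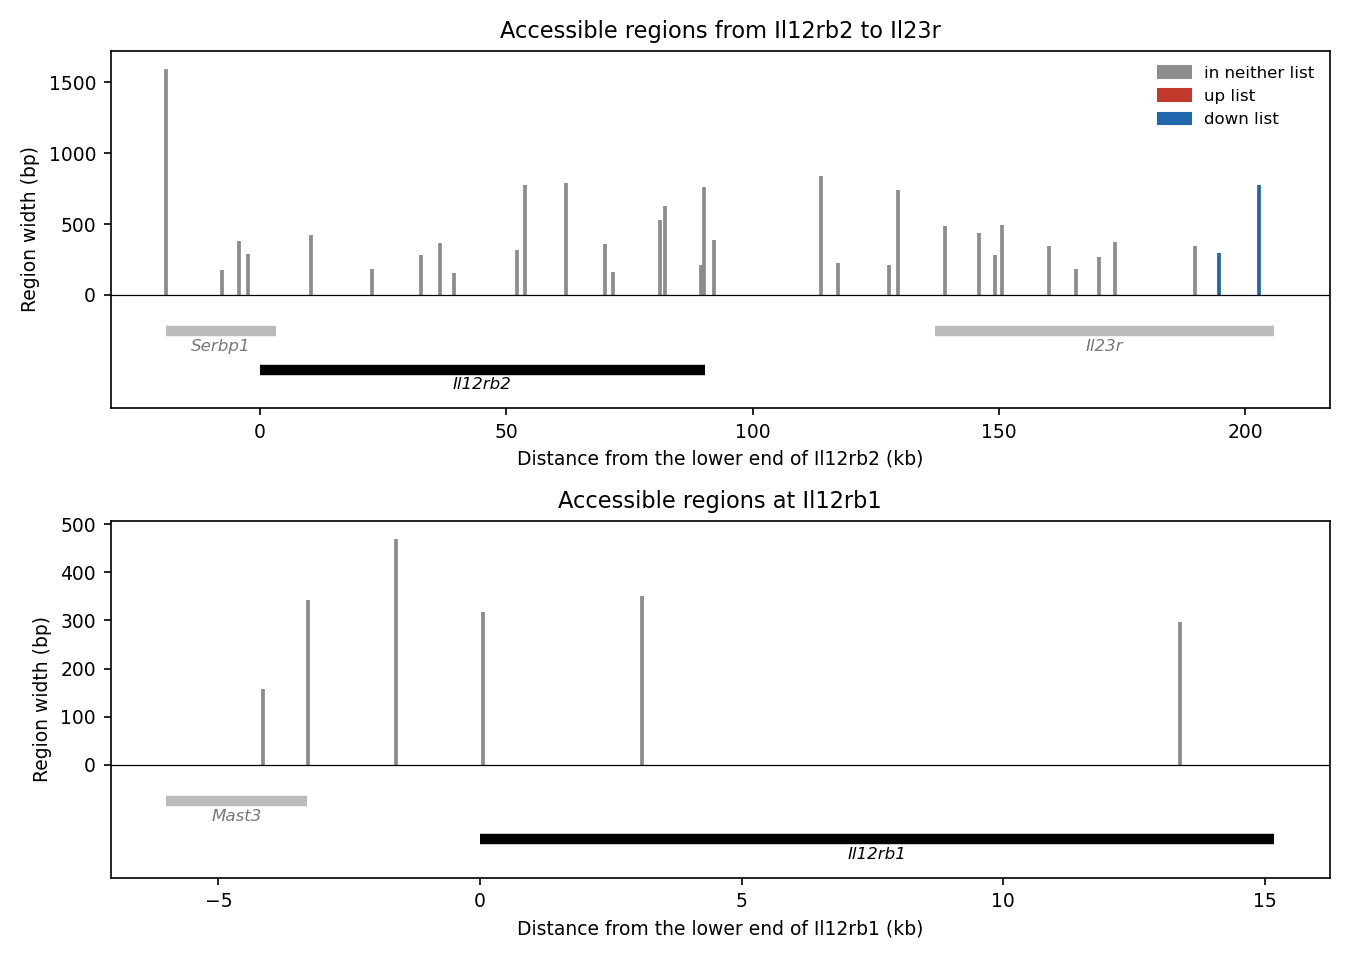
Regions from Il12rb2 to Il23r (top) and at Il12rb1 (bottom), drawn as lines at their midpoints with width (bp) as height, against distance from the lower end of the receptor gene (kb). Black bars are the 2 receptor genes and grey bars are other genes. The 2 blue lines inside Il23r are down regions, and no line of Il12rb2 or Il12rb1 is coloured.

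The widths of the 65 regions spread around those of the whole list. Their median width was 424 bp (interquartile range 297 to 551 bp), against 400 bp (252 to 653 bp) for all regions. Medians by gene ran from 269 bp at Il1r2 to 523 bp at Il1rl2. Within 1000 bp of an end of any protein-coding gene lay 11 of 65 regions (16.9%), against 17.1% of all. Inside the gene they were assigned to lay 49 of 65 (75.4%), against 61.1% of all. Regions outside the gene were frequent at Il1rl1 (4 of 7) and rare at Il12rb2 (1 of 15).

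**Figure D4:**
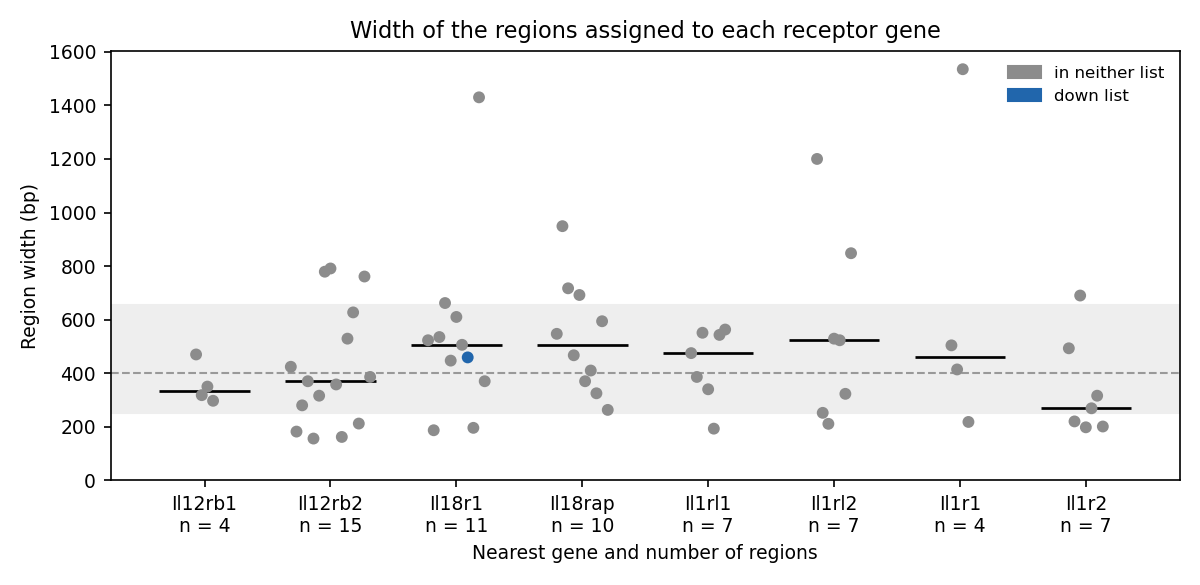
Width (bp) of each of the 65 regions, grouped by nearest gene. Points are regions in order of position, the blue point is the down region of Il18r1, black lines are medians by gene, and the dashed line and grey band are the median (400 bp) and interquartile range of all regions.

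Listed regions were also looked for around the receptors. Below the block, the nearest was an up region of 397 bp at chr1:40051180-40051576, 33.1 kb from Il1r2 and 24.9 kb from Map4k4, to which it was assigned. It was 7.56 kb from the first region assigned to Il1r2. Above the block, the nearest was an up region of 488 bp at chr1:40687922-40688409 inside Slc9a2, 136 kb from Il18rap. In the flanks of 500 kb, 5 of 68 regions of other genes were up and 1 was down, so that 8.82% were listed against 5.61% of all regions. Around Il12rb2, 2 of 77 were up and 2 were down (5.19% listed). The 2 down regions lay inside Il23r, which encodes the chain that pairs with IL-12Rβ1 in the IL-23 receptor. They measured 299 bp at chr6:67480565-67480863 and 773 bp at chr6:67488394-67489166, 104 and 112 kb from Il12rb2. Around Il12rb1, 2 of 116 regions of other genes were up and 0 were down (1.72% listed).

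Other genes of the same pathways were counted in the same way, from a list of ligands, related receptor chains, signalling proteins and 1 target. Of 37 genes found in the gene table, 32 were nearest to at least 1 region. Their 260 regions included 10 up (3.85%, against 4.21% of all regions) and 6 down (2.31%, against 1.40%), and the median number of listed regions per gene was 0, as it was for the 8 receptor genes. A listed region belonged to 10 of the 32 pathway genes (31.2%), against 20.1% of all genes with a region. These 2 shares are not matched for the number of regions per gene, whose median over all genes with a region was 3. Genes with more regions more often had a listed one: 83.1% of genes with 4 regions had none, 69.6% with 7 and 56.6% with 10. The difference between the shares is therefore not read as a trait of the pathway genes. Up regions belonged to 7 of the pathway genes and down regions to 4, with Ifng among both.

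Among signalling proteins, 2 of 146 regions were up (1.37%, against 4.21% of all regions) and 2 were down (1.37%, against 1.40%). Stat4, the factor activated by IL-12, had 22 regions and Tyk2 had 6, none listed. Jak2, the kinase of the IL-12Rβ2 chain, had 1 of 6 regions down, 569 bp at chr19:29265271-29265839 inside the gene. Irak2, a kinase downstream of IL-1 and IL-18 receptors, had 1 of 17 regions up, 413 bp at chr6:113675266-113675678 inside the gene. Tab2, an adaptor of the TAK1 kinase, had 1 of 23 up, and Map3k7, which encodes TAK1, had 1 of 28 down, both outside the genes.

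Among ligands, 4 of 33 regions were up (12.1%, against 4.21% of all regions) and 0 were down (against 1.40%). Il18 was the nearest gene to 1 region, and that region was up, 570 bp at chr9:50569991-50570560 inside the gene. The Il18 promoter window overlapped a different region, of 685 bp at chr9:50554654-50555338, which was assigned to Bco2 and was in neither list. Il1a, Il1rn and Il1f10 each had 1 up region outside the gene, of 2, 3 and 3 regions, at 5.66, 18.3 and 17.3 kb from it. Those of Il1rn and Il1f10 lay near each other, at chr2:24318029-24318520 and chr2:24311504-24312024. The up share of the ligands rests on 4 regions and was not tested. Il12a had 11 regions and Il12b had 6, none listed. Of the related receptor chains, 0 of 40 regions were up and 2 were down (5%, against 1.40% of all regions). Both belonged to Il23r, which had 17 regions, and Il1rap, the accessory chain of the IL-1, IL-33 and IL-36 receptors, had 7 regions with none listed. Ifng, which IL-12 and IL-18 induce, had 4 up regions of 41 (9.76%, against 4.21% of all regions) and 2 down (4.88%, against 1.40%). All of these listed regions lay outside the gene, 9.88 to 204 kb from it, and only 3 of the 41 regions lay inside.

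**Figure D5:**
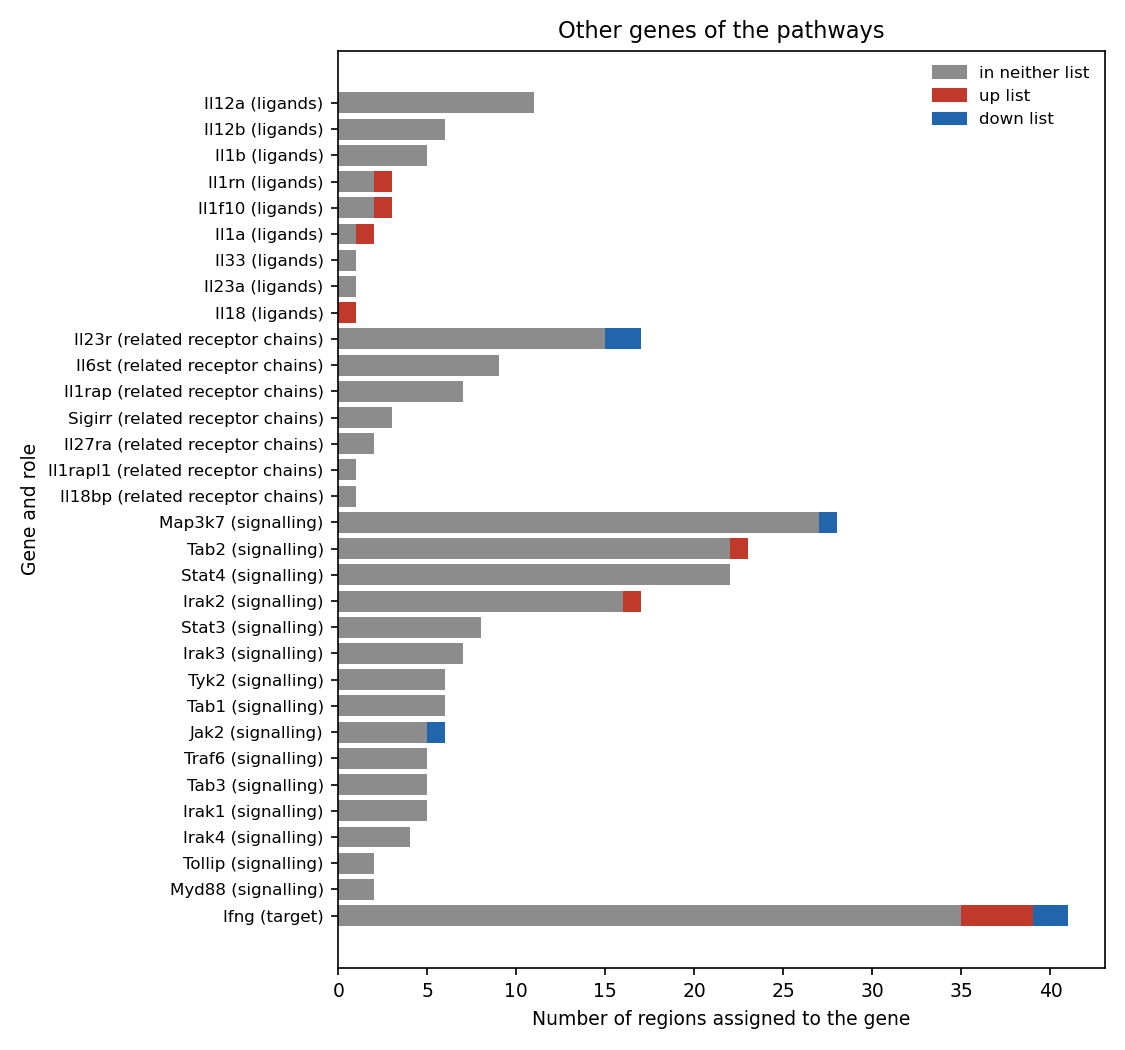
Number of regions assigned to each of the 32 other pathway genes with at least 1 region, split into regions in neither list (grey), the up list (red) and the down list (blue). Ifng has the longest bar with 6 coloured regions of 41, and the bar of Stat4 (22 regions) is grey throughout.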

How the data were processed

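ATAC-seq, in which a transposase cuts open chromatin, was performed on 4 samples of cultured NK cells, 2 per IL-15 dose, which the labels call biological replicates. Samples were grouped by the dose in their titles. Per the submitters' processing notes, BWA, ArchR, MACS2 and HOMER 4.11.1 were used on build mm10. Their settings, whether samples were pooled for calling, and the test behind the up and down lists are not given in the sources used here. The deposited tables hold positions and, in bp, a width (unit other: no count, signal or score). A test of the doses planned for values per sample could not be run.

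Starts in the full list were raised by 1, after which every up and down region equalled a listed region. Regions were assigned to genes with RefSeq GRCm38.p6 (Python 3.11.15, pandas 2.3.3, SciPy 1.17.1), by distance to the gene span, ties going to the nearer end. The assignment was tested on simulated data. No test was run on regions, which are not replicates. Named were all 8 genes, their listed regions, those over gene ends or promoters, the widest and narrowest of each gene, neighbours of listed regions, pathway genes with listed regions (some without are named for their role) and, as similar genes, up to 3 with the same counts as a receptor with a listed region. The receptors and lists were chosen with earlier results of these data known. Alternatives changed the gene set, the distance rule, the width minimum and the joining of regions.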

Additional observations from a re-analysis of the deposited data

How the results depend on the processing

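No paired analysis was possible because no table used here gives a value for a single sample, even though the labels number the replicates of each dose 1 and 2. No replicate could be left out either, and the planned test of the doses was not run. For 14 counts and medians, 94 alternatives were run, of which 9 moved. The other 85 stayed within 1.5 times the reported count (or, for the median width, within its SD). Some of these 85 could not have moved. Limiting the assigned regions to 50 kb from their gene removed none, since the farthest lay 36060 bp away. The limit of 10 kb and the width minimum only remove regions, so a count of 0 had to stay 0. The number kept is therefore not a measure of robustness. Counting every region within 50 kb of a receptor gene, whichever gene was nearest, gave 102 regions in place of 65, with 24 for Il12rb2 and 26 for Il12rb1. It also gave 1 up region in place of 0 for all 8 genes and for the block, the one assigned to Map4k4. Assignment to the nearest start site gave the block 1 up and 2 down regions. The added ones were 2 of Map4k4, which has no promoter window in the table used and so could not be nearest. This rule was not run for Il12rb1 or for the 8 genes together, since Il12rb1 has no window. The number of regions near a gene end, 11 within 1000 bp, was 5 within 100 bp and 18 within 3000 bp. For single genes, a limit of 10 kb left 4 of 7 regions at each of Il1rl1, Il1rl2 and Il1r2, and admitting genes of any biotype left 3 of 7 at Il1r2. The down region of Il18r1 was counted under each alternative run. With 65 regions and no depth, absence from the lists does not show equal accessibility at both doses.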
